A study of Mus musculus with 6 samples.

Results

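The genes described here are 10 genes of skeletal muscle, Acta1, Actc1, Myh3, Myh8, Tnnc2, Tnnt3, Tnni1, Mylpf, Myl1 and Ckm, measured in brains of mouse embryos. They were chosen from these same arrays because Acta1 and Myh8 had read high on mutant array 3, so the high values on that array are a description and are not tested. All 10 were found, of 18193 genes with a probe set annotated to that gene alone, and they had 11 such probe sets of 45037. Total RNA of whole brain at E18.5, late in gestation, was hybridised to 6 Affymetrix arrays, 3 of wild-type and 3 of Foxf2 mutant embryos, all on a C57/bl6 background. The labels do not describe the mutation, the litters, any pooling of embryos or the order of hybridisation. P-values therefore set the group difference only against the spread within the groups of these 6 samples. The replicate numbers used below (mutant array 3 and so on) are those of the labels.

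Skeletal muscle fibres contract when myosin heads in the thick filament pull on thin filaments built of actin. Calcium starts this by binding troponin C, which acts through troponin I and troponin T on the thin filament, and creatine kinase restores the ATP that myosin uses. Fast and slow fibres use different genes for the same part, and embryonic and perinatal myosins are made before the adult ones. These transcripts are textbook markers of striated muscle and are not markers of brain cells.

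On mutant array 3 every member probe set had its highest value of the 6 arrays, in 11 of 11. On the other 5 arrays all members but Acta1 read below 16. The summed intensity of the 10 genes, with the brightest probe set of each, was 110 (109.5), 101 and 122 on wild-type arrays 1, 2 and 3. It was 131 and 129 on mutant arrays 1 and 2, and 2396 on mutant array 3. The other 2 mutant arrays were thus close to the wild-type range, and the high level belonged to a single array. Intensities are MAS5 signals on a linear scale, with trimmed means of 99.5 to 99.6 on all 6 arrays as deposited. A value below about 16 is dim on these arrays, where 41.5% to 44.0% of all probe sets read below 16.

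**Figure D1:**
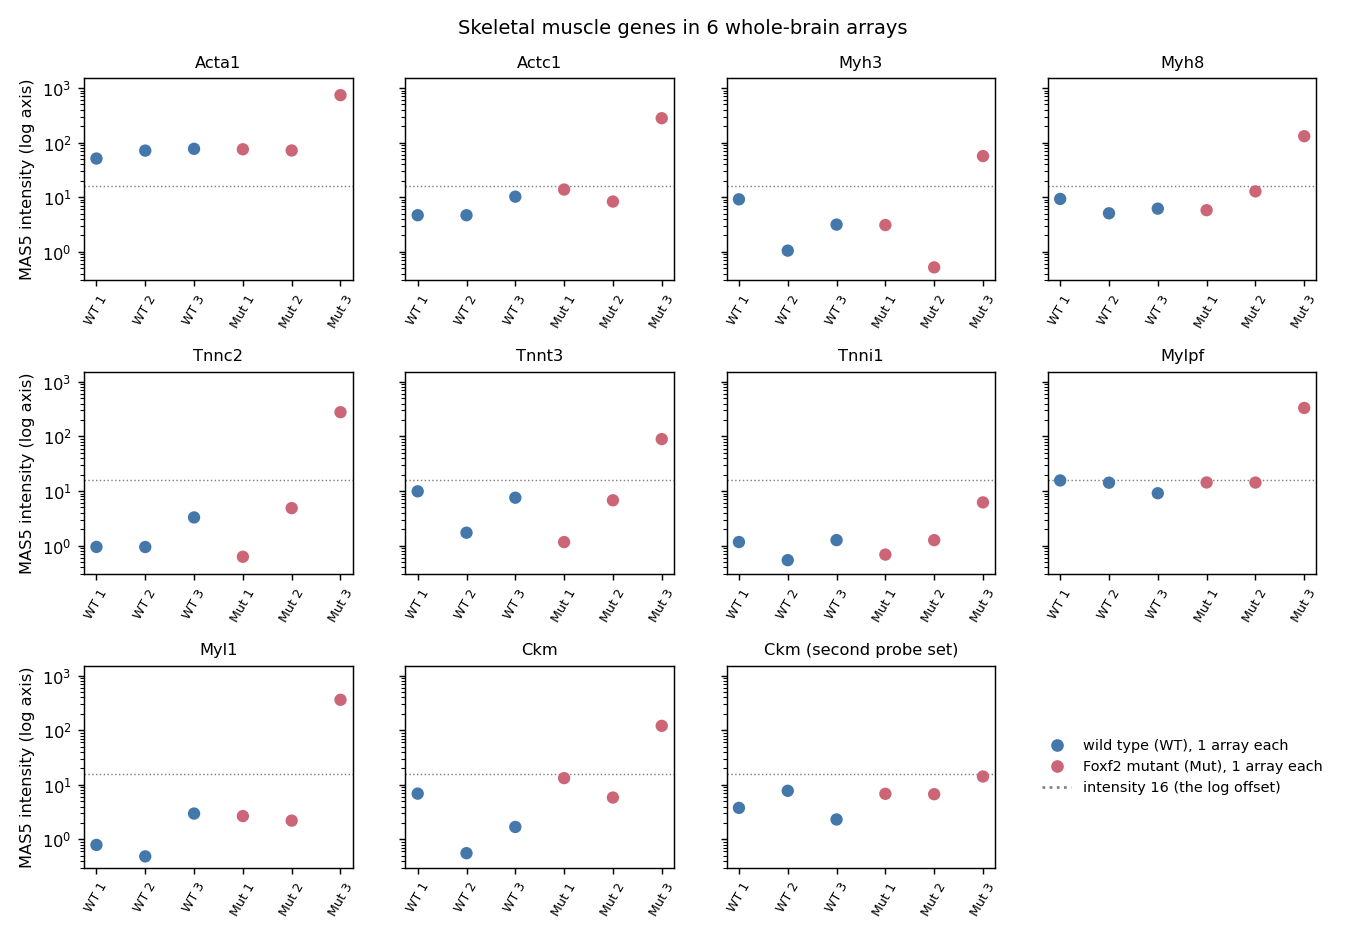
MAS5 intensity (log axis) of the 11 member probe sets on each of 3 wild-type (blue) and 3 Foxf2 mutant (red) arrays, 1 point per array, with a dotted line at 16. Mutant array 3 is the highest point in all 11 panels, at 741 for Acta1 and 6.19 for Tnni1.

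The thin filament actins came first. Acta1, the skeletal muscle actin, read 51.1, 71.4 and 77.0 on the wild-type arrays and 75.5, 71.8 and 741 on the mutant arrays. Mutant array 3 lay 9.63 times above the highest other array, and mutant arrays 1 and 2 lay inside the wild-type range. Actc1, the cardiac actin that fetal skeletal muscle also makes, read 4.68, 4.68 and 10.2 on the wild-type arrays and 13.8, 8.32 and 280 (280.0) on the mutant arrays. Both actins were therefore bright on the same single array, and Actc1 was dim on the other 5. Actin genes are close relatives, so probes may pick up more than a single transcript. Acta2, the smooth muscle actin, did not share the pattern, with 128.9 on mutant array 3 and 141.8 to 169.9 on the other arrays. The brain-wide actin Actb read 5498 on mutant array 3 and 5056 to 5526 elsewhere.

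As a separate description, the sequence before the start of each gene was searched for motifs known from muscle promoters. The RefSeq promoter table of build GRCm38.p6 held 9 of the 10 members, and Tnni1 had 2 starts. The E-box CANNTG, which myogenic factors such as MyoD bind, was searched on both strands, as were the narrower E-box form CAGCTG, the CArG box bound by serum response factor, the MEF2 box, the MCAT element CATTCC and the TATA sequence TATAAA. Any CAGCTG is also a CANNTG. In the 250 bases before the start, the promoters of both actins held a CArG box, and they are shown for that reason, with matches to the first E-box, CArG, MEF2 and MCAT motifs in capitals.
Acta1 (chr8:123894776-123895025, minus strand): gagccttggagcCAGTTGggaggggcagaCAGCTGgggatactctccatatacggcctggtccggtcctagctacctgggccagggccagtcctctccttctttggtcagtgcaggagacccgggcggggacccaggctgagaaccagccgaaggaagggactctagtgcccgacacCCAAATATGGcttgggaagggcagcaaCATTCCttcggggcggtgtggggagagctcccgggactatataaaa
Actc1 (chr2:114052876-114053125, minus strand): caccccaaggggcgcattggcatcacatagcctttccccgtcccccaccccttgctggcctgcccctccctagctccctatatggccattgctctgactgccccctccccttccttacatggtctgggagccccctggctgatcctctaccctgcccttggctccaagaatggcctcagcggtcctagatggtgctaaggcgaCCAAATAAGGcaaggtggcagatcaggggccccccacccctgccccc

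The Acta1 window had its CArG box at positions -73 to -64, counted back from the start, a MCAT element at -46 to -41 and 2 E-boxes. The Actc1 window had a CArG box at -47 to -38 and no E-box. Over all 32851 promoters of the table, 1.47% held a CArG box in this window, and 2 of the 9 member genes did. A match is a description of letters and does not show that a factor binds.

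The myosin heavy chains of developing muscle followed. Myh3, the embryonic myosin, read 9.15, 1.05 and 3.15 on the wild-type arrays and 3.09, 0.518 and 56.7 on the mutant arrays. Myh8, the perinatal myosin, read 9.30, 5.08 and 6.18 on the wild-type arrays and 5.79, 12.8 and 131 on the mutant arrays. Both were dim on 5 arrays and clearly above that level on mutant array 3. In the order of protein-coding genes in RefSeq, Myh3 is followed by the adult myosins Myh2, Myh1 and Myh4 and then by Myh8. These 3 genes between them were on the list of other sarcomere genes. Myh1 read 24.5 on mutant array 3 and 1.504 to 4.36 elsewhere, on an _x_at probe set, a type in which some probes may cross-hybridise. Myh2 read 8.42 on mutant array 3 and 1.18 to 10.1 elsewhere, and Myh4 read 3.57 against 2.15 to 5.16. Of these 5 myosin neighbours, the developmental Myh3 and Myh8 and the adult Myh1 were highest on mutant array 3, and Myh2 and Myh4 were dim on all 6 arrays. These adult myosins were named after their values were seen, as were Acta2, Actb and Ckb and the light chains Myl2 and Myl3.

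Both light chain members encode fast fibre proteins. Mylpf, the regulatory light chain, read 15.6, 14.2 and 9.10 on the wild-type arrays and 14.3, 14.3 and 333 on the mutant arrays. Myl1, the alkali light chain, read 0.792, 0.488 and 2.97 on the wild-type arrays and 2.67, 2.21 and 361 on the mutant arrays. Myl1 had the largest step of all members on the offset log scale, from near the floor of 5 arrays to a clear signal on mutant array 3. Myl2, the slow and ventricular regulatory chain, read 25.4 on mutant array 3 and 4.04 to 14.2 on the others. Myl3, the slow and ventricular alkali chain, read 18.0 against 13.9 to 24.8. The promoters of Myh8, Mylpf and Myl1 are shown because they cover the other motifs found, with the same motifs in capitals.
Myh8 (chr11:67276874-67277123, plus strand): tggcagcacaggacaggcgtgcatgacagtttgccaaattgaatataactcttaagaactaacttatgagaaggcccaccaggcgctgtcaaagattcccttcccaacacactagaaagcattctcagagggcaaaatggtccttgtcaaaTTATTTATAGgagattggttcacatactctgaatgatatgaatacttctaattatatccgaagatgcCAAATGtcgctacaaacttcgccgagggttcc
Mylpf (chr7:127211358-127211607, plus strand): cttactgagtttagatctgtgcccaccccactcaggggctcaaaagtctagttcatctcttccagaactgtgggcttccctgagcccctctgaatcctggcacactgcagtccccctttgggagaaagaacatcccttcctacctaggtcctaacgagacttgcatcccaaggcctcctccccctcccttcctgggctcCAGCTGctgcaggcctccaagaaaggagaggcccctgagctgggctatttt
Myl1 (chr1:66945057-66945306, minus strand): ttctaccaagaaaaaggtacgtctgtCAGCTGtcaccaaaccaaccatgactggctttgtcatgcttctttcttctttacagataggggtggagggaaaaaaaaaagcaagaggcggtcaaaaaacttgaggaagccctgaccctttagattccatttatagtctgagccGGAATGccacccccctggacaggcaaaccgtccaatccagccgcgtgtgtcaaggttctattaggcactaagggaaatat

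Myh8 held the only MEF2 box among the members, at -99 to -90, where it overlaps TATAAA, against 2.92% of all promoters. Mylpf, at -51 to -46, and Myl1, at -224 to -219, held the CAGCTG form. That form was found in 5 of the 9 member genes and in 13.0% of all promoters. The wider CANNTG was found in 8 of 9 members and in 66.2% of all promoters. TATAAA was present in 4 of 9 members and 12.4% of all, and the MCAT element in 2 of 9 and 12.6%. Tnnc2 had 2 E-boxes, and Myh3 had 1. For Ckm the window held 1 E-box at its far end, at -249 to -244.

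**Figure D2:**
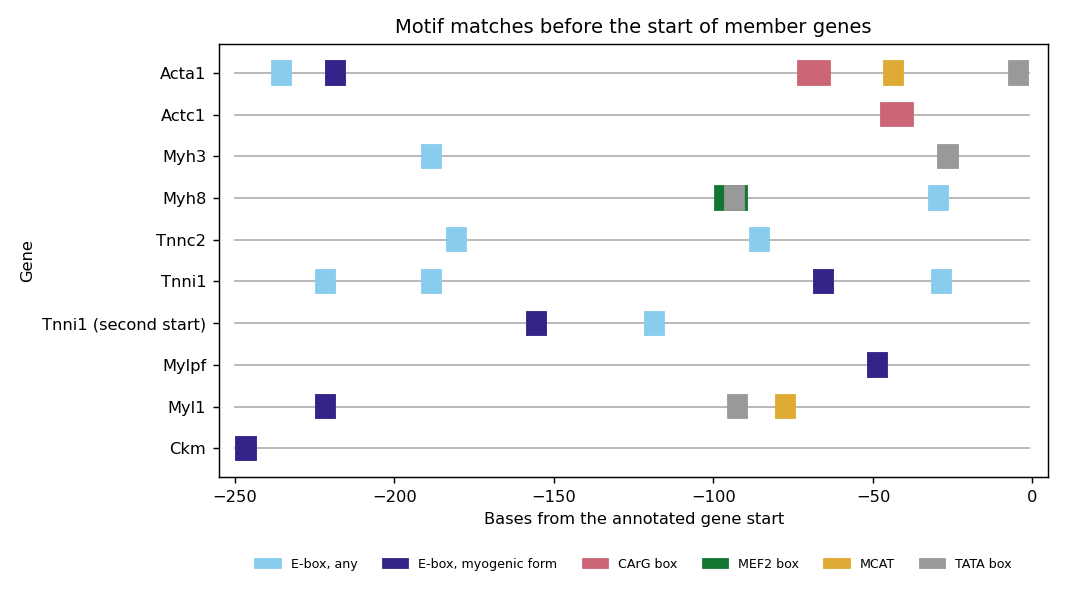
Motif matches on either strand (coloured boxes) in the 250 bases before the annotated start of 9 member genes, Tnni1 with both of its starts, with distance from the start on the horizontal axis. CArG boxes appear in Acta1 and Actc1, and the MEF2 box in Myh8.

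The troponin members cover each of the 3 subunits. Tnnc2, fast troponin C, read 0.946, 0.942 and 3.28 on the wild-type arrays and 0.624, 4.86 and 278 on the mutant arrays. Tnnt3, fast troponin T, read 9.87, 1.72 and 7.54 on the wild-type arrays and 1.16, 6.76 and 89.4 on the mutant arrays. Tnni1, slow troponin I, read 1.16, 0.541 and 1.26 on the wild-type arrays and 0.684, 1.26 and 6.19 on the mutant arrays. All were highest on mutant array 3, where Tnnc2 and Tnnt3 read above 16 and Tnni1 below it. Tnni2, fast troponin I and a near neighbour of Tnnt3 in the RefSeq order, was on the list of other sarcomere genes and read 110.02 on mutant array 3 against 0.837 to 7.35. Its second probe set read 52.8 against 0.606 to 2.09. The slow genes Tnnc1 and Tnnt1 read 34.9 and 22.0 on mutant array 3, against 16.8 to 23.6 and 7.85 to 13.5 on the others. Tnnt2, the cardiac troponin T that fetal skeletal muscle also makes, read 15.7 against 0.385 to 4.78. These slow and cardiac genes were named after their values were seen, and levels of different probe sets cannot be ranked against each other.

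Ckm, muscle creatine kinase, was the only member with 2 probe sets. The brighter gave 6.89, 0.559 and 1.69 on the wild-type arrays and 13.3, 5.84 and 120.2 on the mutant arrays. The other gave 3.78, 7.77 and 2.32, and 6.84, 6.73 and 14.2. Both were highest on mutant array 3, and the second stayed below 16 there. Ckb, the brain form of the enzyme, read 1005 on mutant array 3 and 935 to 1142 on the others.

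Each array was then set against the other 5, as log2(intensity + 16) minus the median of the other 5 arrays. The offset of 16 keeps dim values from dominating, and it understates the change of dim genes. On mutant array 3 the members lay between 0.37 and 4.37 log2 units above the other arrays, with a median over the 10 genes of 2.92. The medians on the other arrays ran from -0.18 to 0.03. At least 1 log2 unit above the other arrays was reached by 9 of the 11 member probe sets on mutant array 3, and by 0 of 11 on each of the other 5 arrays. Over all 45037 probe sets the same step was reached by 0.211% on mutant array 3. It was reached by 0.0622%, 0.0444% and 0.06% on wild-type arrays 1, 2 and 3, and by 0.0777% and 0.0977% on mutant arrays 1 and 2. The members were chosen for values on mutant array 3, so the background stands beside their count and nothing is read from it. The exceptions were Tnni1, at 0.37, and the dimmer Ckm probe set, at 0.41.

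**Figure D3:**
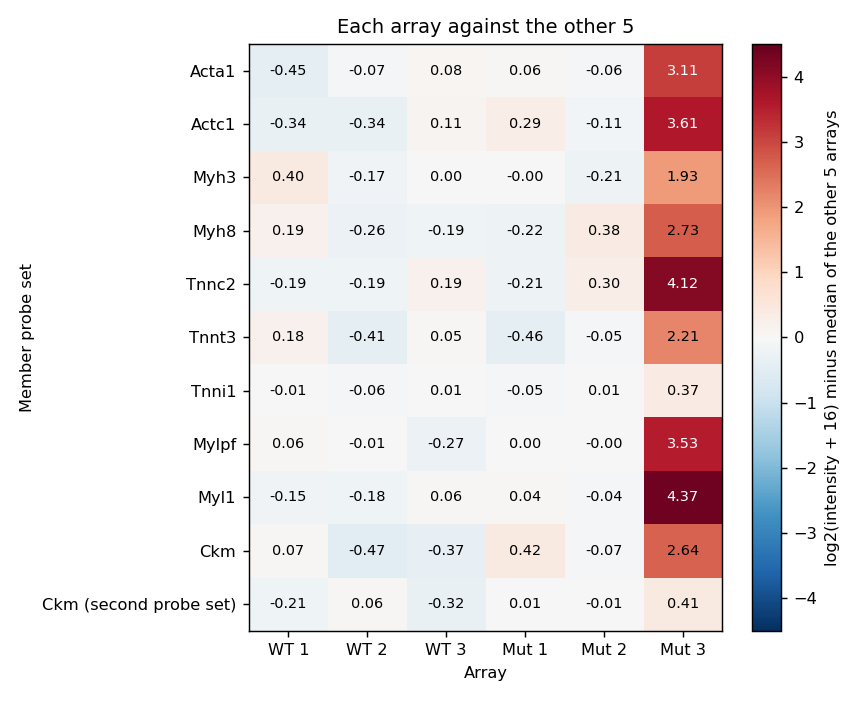
Heat map of log2(intensity + 16) minus the median of the other 5 arrays, for 11 member probe sets (rows) on 6 arrays (columns), with each value printed. Mutant array 3 runs from 0.37 (Tnni1) to 4.37 (Myl1), and every other cell lies between -0.47 and 0.42.

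The genotype contrast with all 6 arrays uses the values that chose the members, so it is a description and not a test of them. For every member probe set the values of the groups overlapped, while 20.3% of tested probe sets had groups that did not overlap. Acta1 averaged 66.5 ± 13.6 (SD, n = 3) without the mutation and 296 ± 385 (SD, n = 3) with it, a log2 difference of 1.16 ± 0.70 (SE). For Myl1 the means were 1.42 ± 1.36 (SD, n = 3) and 122 ± 207 (SD, n = 3), with a log2 difference of 1.54 ± 0.98 (SE). The mutant SD exceeded the mutant mean in 10 of the 11 probe sets. The exception was the dimmer Ckm probe set, at 9.25 ± 4.28 (SD, n = 3). By limma 0.366% of tested probe sets were called higher in the mutant at an adjusted p of 0.05, and 13.6% had an unadjusted p under 0.05 in either direction. The members had 0 of either kind, and nothing is read from that. Of the 8 member probe sets above the filter on dim values, 2 passed it without mutant array 3, Acta1 and Mylpf, and the other 6 passed only through the array where they were high. Myh3, Tnni1 and the dimmer Ckm probe set did not pass it.

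On the log2 scale the SD of the member probe sets ran from 0.03 to 0.29 among wild-type arrays and from 0.22 to 2.51 among mutant arrays. Over all tested probe sets the median SD was 0.12 and 0.13. Without mutant array 3 the median log2 difference of the 10 genes went from 1.20 to 0.08 (0.0795). The largest that remained was that of the brighter Ckm probe set, 0.42 ± 0.18 (SE), and Myh3 and Tnnt3 turned to -0.18 ± 0.17 (SE) and -0.16 ± 0.19 (SE). The fit without that array leaves out the high values behind the choice. Those values were high against the arrays it keeps, so this fit is a description too. In it limma called 0 of the 2 member probe sets above the filter and 0% of all tested probe sets. At an unadjusted p under 0.05 there was 1 of all 11, the brighter Ckm probe set at 0.0494, and 10.9% of tested probe sets.

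**Figure D4:**
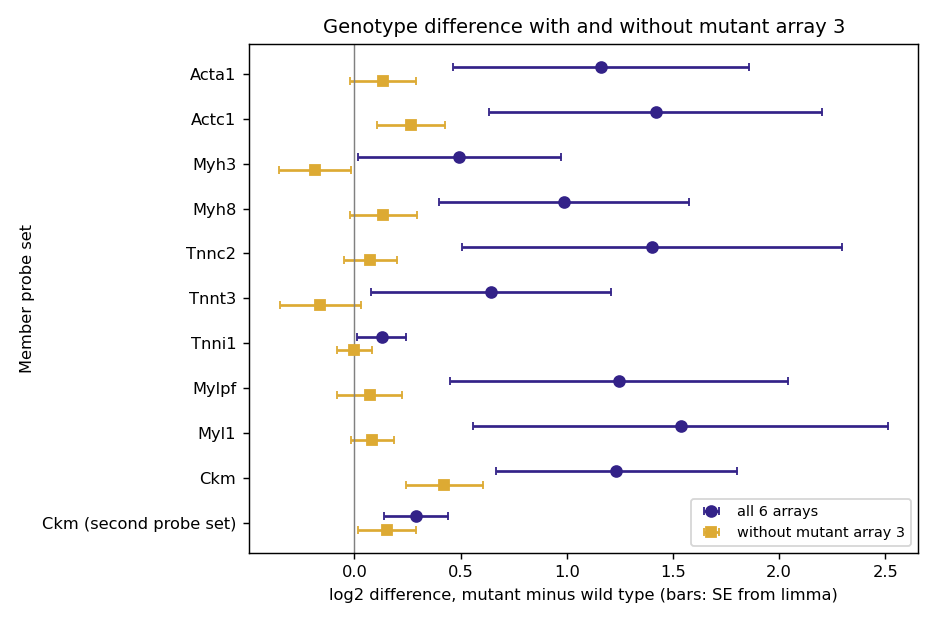
Log2 difference, mutant minus wild type, of each member probe set with its standard error from limma, for all 6 arrays (circles) and without mutant array 3 (squares). With all arrays the differences run from 0.13 to 1.54, and without mutant array 3 from -0.18 to 0.42.

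Other genes of striated muscle were partly high on the same array. Their lists leave out the members and were chosen with earlier results of these data known. In the sarcomere list 9 of 44 measured genes lay at least 1 log2 unit above the other arrays on mutant array 3, and 0 of 44 did so on any other array. Tnni2 was followed by Mybpc1, a myosin-binding protein of the thick filament, with 71.1 against 5.47 to 11.1. Csrp3, a muscle LIM protein, read 49.3 on mutant array 3 and 5.35 to 14.7 on the others. Myoz1, a Z-disc protein of fast fibres, read 43.3 against 8.09 to 14.7 (14.75). The giant spring protein gene Ttn, too dim for the filter and named after its values were seen, read 38.7 against 0.795 to 8.77. Summed over the list, intensity reached 2564 on mutant array 3, beside 1924 and 1828 on mutant arrays 1 and 2 and 1791 to 1899.8 in the wild type. The largest part of each sum was Tpm3, named after its values were seen, with 1164 on mutant array 3 and 1060 to 1169 elsewhere.

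Genes that couple excitation to contraction gave 3 of 22 at least 1 unit above, again on mutant array 3 alone of the 6 arrays. Sln, sarcolipin, a small inhibitor of the calcium pump, read 82.9 there and 2.72 to 10.2 on the others. Casq2, a calcium store protein, read 50.7 there, 17.3 and 22.1 on mutant arrays 1 and 2, and 9.74 to 10.1 in the wild type. Atp2a1, the fast fibre calcium pump, read 49.0 against 10.1 to 15.5. Casq1, the fast form of the store protein, read 35.2 against 8.96 to 24.0 (23.96). The calcium channel Ryr1, also named after its values were seen, read 30.7 on mutant array 3 and 34.5 to 44.6 on the others. The whole list summed to 431, 451 and 608 on mutant arrays 1, 2 and 3, beside 374 to 402 in the wild type.

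Among muscle enzymes and oxygen-binding proteins, 2 of 16 were at least 1 unit above on mutant array 3. Eno3, the muscle enolase, read 96.2 there and 30.0 (30.03) to 37.5 elsewhere. Cox6a2, a striated muscle subunit of cytochrome oxidase, read 36.7 against 10.3 to 21.8. Art1, a muscle ADP-ribosyltransferase, was not high on mutant array 3, with 14.6 against 4.78 to 24.4. Pvalb, the calcium buffer parvalbumin of fast fibres and of some neurons, read 37.1 against 15.6 to 36.1. Below the filter and named after their values were seen, Pgam2, muscle phosphoglycerate mutase, read 34.8 against 2.12 to 9.51, and myoglobin, Mb, 11.95 against 0.832 to 3.57.

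Among 17 myogenic regulators 0 were 1 unit above the other arrays on any array. Chd7, a chromatin remodeller, read 27.6 on mutant array 3 and 26.2 to 47.5 on the others, and Vgll2, a cofactor of muscle transcription, 20.9 against 17.4 to 34.7. Cdh15, the muscle cadherin, read 31.2 against 20.3 to 26.0 (25.97), and Pax3, a factor of muscle precursors and neural crest, 25.8 against 18.3 to 33.1. Of these 4, Cdh15 was highest on mutant array 3, by a small margin. The myogenic factor genes Myod1 and Myog, named after their values were seen, were dim throughout, with 9.92 and 7.05 on mutant array 3 and at most 8.12 and 5.91 on the others.

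By limma, 0 genes of these 4 lists passed the threshold in either direction, of 17, 11, 9 and 10 above the filter. At an unadjusted p under 0.05 there were 2, 3, 0 and 0, beside 13.6% of all tested probe sets. For the genes above the filter the median log2 differences were 0.20, 0.32, 0.08 and -0.01, beside a median of -0.01 over all tested probe sets. With mutant array 3 left out, 12, 9, 9 and 10 genes were above the filter. Tnni2, Mybpc1, Csrp3, Myoz1, Sln and Atp2a1 passed it only through the array where they were high. Nothing is therefore read from these counts and medians. Without mutant array 3 the medians over all measured genes of the lists went from 0.18, 0.12, 0.14 and 0.04 to 0.00, 0.10, -0.03 and 0.06. The sarcomere and enzyme lists share Actn3.

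Markers of other tissues were read beside the members. In the cartilage list 4 of 12 genes lay at least 1 unit above the other arrays on mutant array 3. Col2a1, the main collagen of cartilage, read 141 there and 18.6 to 48.5 elsewhere, and Acan, its large proteoglycan, 43.5 against 2.08 to 24.3. Col9a1 read 110.8 against 28.4 to 41.0, and Cnmd, chondromodulin, 46.4 against 21.5 to 27.9. Matn1, a cartilage matrix protein below the filter and named after its values were seen, read 45.8 against 1.05 to 10.52. Cartilage sums were 209, 242 and 564 on mutant arrays 1, 2 and 3, beside 194 to 241 in the wild type. Tnmd, a tendon gene, read 70.8 on mutant array 3 and 1.18 to 7.72 on the others. It was the only 1 of 11 tendon and connective tissue genes at least 1 unit above there, while 5 of 11 were highest on that array. In the fat list, Car3, a carbonic anhydrase also abundant in skeletal muscle, read 83.3 against 14.4 to 17.8. The medians on mutant array 3 were 0.54 log2 units above the other arrays for the cartilage list, 0.16 for the tendon list and 0.06 for the fat list. For the muscle lists the same medians were 0.49 (sarcomere), 0.16 (excitation to contraction), 0.43 (enzymes) and 0.02 (regulators). In the tendon, fat and excitation-contraction lists single genes were thus high and not the lists as a whole. The part of the cartilage, tendon and fat genes in the members' values was not tested.

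Heart, smooth muscle, bone, skin, eye and nose lists had 0 genes at least 1 unit above the other arrays on mutant array 3. Above the filter were 2 of 12 heart, 6 of 9 smooth muscle and 3 of 7 bone genes. For skin it was 5 of 10, and for eye and nose 1 of 8. The offset understates the change of dim genes, so absence of these tissues is not read from the counts. The 12 cardiac genes summed to 167, 198 and 169.6 on mutant arrays 1, 2 and 3, beside 165 to 191 in the wild type. The largest part of that sum was Ryr2, with 75.5, 97.5 and 56.6 on mutant arrays 1, 2 and 3 and 78.2 to 90.9 in the wild type. Of the 12 genes, 2 were highest on mutant array 3, among them Myl2 at 25.4 against 4.04 to 14.2. The 9 smooth muscle genes summed to 407 to 424 and to 407, 458 and 352. The 8 non-muscle relatives of the members summed to 15571 to 16363 in wild-type and 16310 to 16771 in mutant arrays. The 17 brain markers, among them Tbr1 and Neurod6 of cortical neurons, were present on every array and summed to 19703 to 21678 and 21091 to 22517. On mutant array 3 the brain list lay 0.08 log2 units above the other arrays in the median, with 0 of 17 genes at least 1 unit above. In these bulk samples fewer cells of a type and less RNA per cell cannot be told apart.

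**Figure D5:**
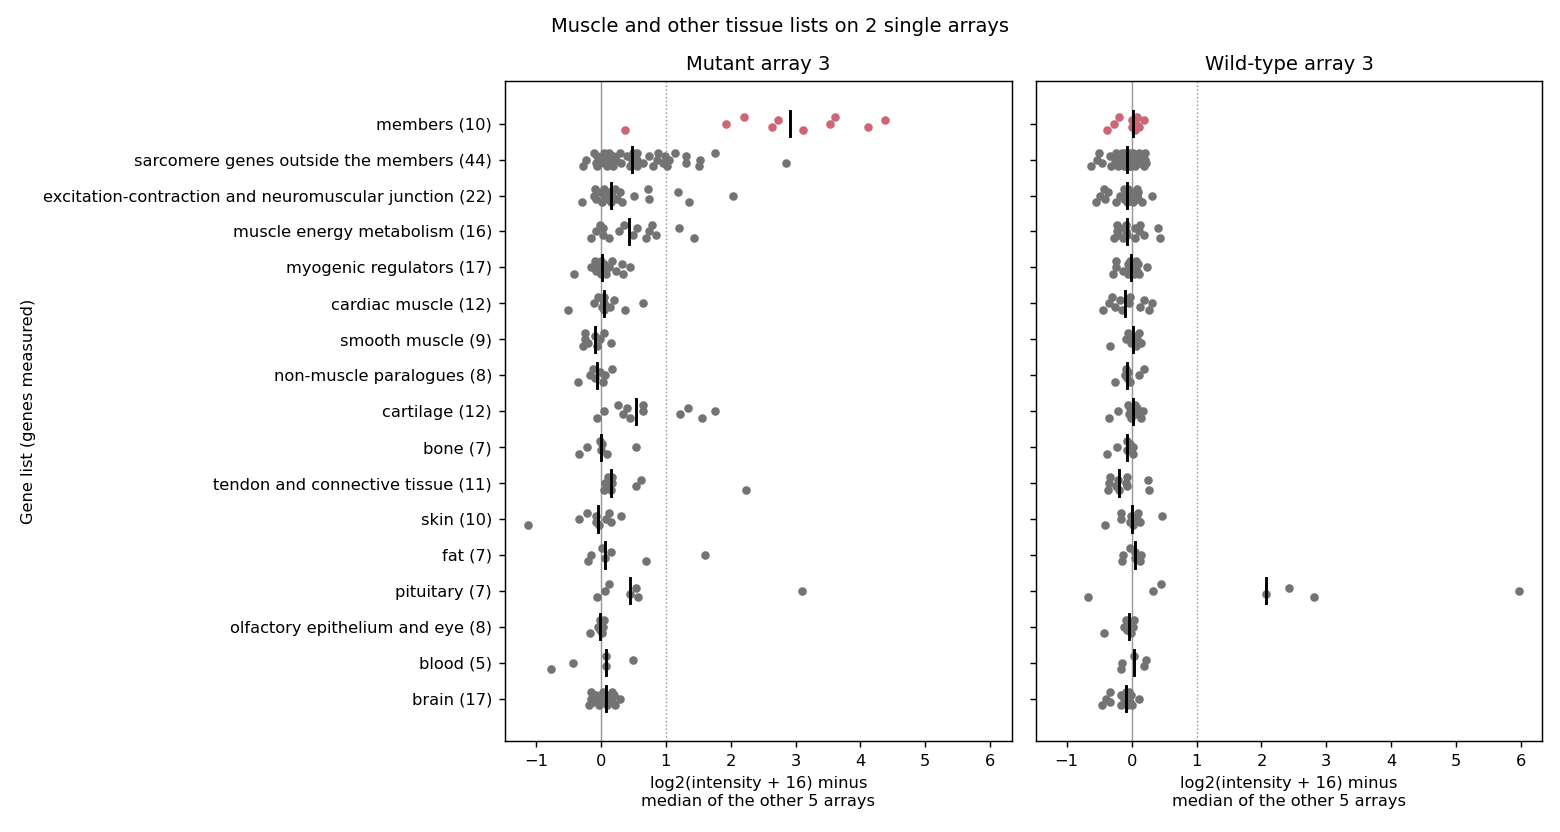
Each point is a gene, placed by log2(intensity + 16) minus the median of the other 5 arrays, on mutant array 3 (left) and wild-type array 3 (right), for the members (red) and 16 other lists (grey), with a black bar at each list's median and a dotted line at 1. The member median is 2.92 on mutant array 3 and 0.03 on wild-type array 3, where 4 of 7 pituitary genes lie beyond the line.

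Of the 7 pituitary genes, 4 were highest on another array, wild-type array 3. Gh, growth hormone, read 1592 on wild-type array 3 and 203 on mutant array 3, against 5.63 to 23.8 on the others. On wild-type array 3, 4 of 7 pituitary genes and 0 of the 11 member probe sets were at least 1 unit above the other arrays. On mutant array 3 it was 1 pituitary gene, Gh, beside the 9 member probe sets. The pituitary median was 0.44 log2 units above the other arrays on mutant array 3 and 2.07 on wild-type array 3. Pomc and Tshb also had their second highest values on mutant array 3, at 59.2 and 11.4, after 202 and 83.1 on wild-type array 3. The list summed to 72.5, 64.6 and 1999 on wild-type arrays 1, 2 and 3 and to 72.6, 52.7 and 297 on the mutant arrays. The labels describe dissection of the brain without naming the tissues that were left on it, and how far adjoining tissue entered single samples was not tested.

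Of all probe sets, 19 lay at least 2 log2 units above the other arrays on mutant array 3, and 8 of them were members. Another 2 belonged to the muscle lists (Tnni2 and Sln), 4 were Gh probe sets and 1 was Tnmd. The remaining 4 genes were C1qtnf4, Atp1b4, Hspa13 and Atp6v1e1. Atp1b4, a muscle relative of the sodium pump beta subunits, read 59.8 on mutant array 3 and 0.186 to 1.82 elsewhere. C1qtnf4, a secreted protein of the C1q family, read 126 against 7.69 to 21.3. That probe set is not the brightest of its gene, and the brighter one was not 1 unit above on mutant array 3. Hspa13 varied over several arrays, with 465, 431 and 707 on wild-type array 3, mutant array 1 and mutant array 3 and 113 to 154 on the other 3. At 1 unit the count was 95 probe sets, made up of 9 of 11 of the members, 18 of 180 of the 4 muscle lists, 11 of 198 of the other lists, 48 of 34556 singly named in no list and 9 of 10092 without a single gene name. Fitm1, a lipid droplet gene of muscle, read 30.7 against 1.83 to 5.60, and Apobec2, a muscle deaminase relative, 27.3 against 0.807 to 8.43. These genes were named after their values were seen.

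Likeness to the members was measured as the root mean square difference over the 6 arrays between a gene's centred log2 profile and the members' mean profile. Among the members themselves it ran from 0.15 for Myh8 to 0.93 for Tnni1. This range includes Myh3 and Tnni1, which did not pass the filter. Genes outside the members and lists were compared only by their brightest probe set, and only if above the filter. The Atp1b4 and C1qtnf4 probe sets named above were therefore not compared. Of the genes compared, the nearest 10 had 0.51 to 0.75 log2 units. They were 4632415L05Rik, Zfp626, Tceal7, Tmem144, Cwc22, Dnajc17, Fbxo36, Itgb1bp2, Macroh2a3 and Tfrc. Tmem144 and Itgb1bp2 passed the filter only with mutant array 3. The nearest, 4632415L05Rik, read 168 on mutant array 3 and 38.9 to 53.5 on the others. Itgb1bp2, melusin, an integrin-binding protein of striated muscle, read 36.5 against 5.53 to 14.7. Tfrc, the transferrin receptor, read 639 against 305 to 368. All 10 were highest on mutant array 3, which follows from the measure, as it picks genes with the members' profile. Their steps were 0.88 to 1.48 log2 units, smaller than the members' median of 2.92.

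Foxf2, which encodes a forkhead transcription factor, was read as a check of the labels. Its brighter probe set gave 18.6, 24.4 and 13.8 in wild-type and 8.06, 3.31 and 7.57 in mutant brains, without overlap and with mutant array 3 among the low values. It was below the filter with all arrays, with a log2 difference of -0.64 ± 0.15 (SE) and no adjusted p, and above it without mutant array 3, with a limma adjusted p of 0.288. The dimmer probe set gave 0.834, 0.686 and 4.55, and 0.421, 0.309 and 2.77, and there the groups overlapped. The labels do not say which stretch of Foxf2 was changed.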

How the data were processed

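The deposited table holds MAS5 intensity values on a linear scale, 1 column per array. MAS5 is named in the submitters' processing notes, and its version and the genome build are not given in the sources used here. Trimmed means (2% off each end) were 99.5 to 99.6 on every array, so the authors' intensities were already scaled and were not normalized again. Of 45101 probe sets, 64 controls were left out. Names come from the platform annotation: 34945 probe sets had 1 gene symbol, 932 several and 9160 none listed.

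Values were analysed as log2(intensity + 16) with limma 3.58.1 in R 4.3.3 (lmFit, then eBayes with trend on all 45037 probe sets), two-sided. Benjamini-Hochberg adjustment covered the 27022 probe sets left by a filter on mean level set at the 40th percentile (intensity 13.5). The fit and the array deviations were tested on simulated data first. Precision is limited by 3 arrays per group.

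Members, lists and tests were chosen with earlier results of these data known. Genes were named by rule: all members, up to 4 genes per list with the largest single-array deviation above the filter, and the 10 above the filter most like the members. Of lists outside muscle only some of these are printed. Other genes were named after their values were seen and are marked so. In lists each gene is its brightest probe set, a choice that includes mutant array 3, as does the filter. Of the named genes outside the muscle lists, Acan and Tnmd passed the filter only with that array. Of the members 10 of 10 matched. List symbols without a singly named probe set were left out. Alternatives covered the offset, filter, scaling, variance trend, array weights, replicate block, each array left out and probe sets per gene. Planned protein comparisons were not made, as protein sequences were not used here. Promoters are from RefSeq.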

Additional observations from a re-analysis of the deposited data

How the results depend on the processing

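By limma, 0 member probe sets passed the threshold under each alternative run, a description with or without mutant array 3 in the fit. The median member log2 difference of 1.20 became 1.62 with offset 1 and 0.69 with offset 64, and ran from 0.0795 (without mutant array 3) to 1.72 (without mutant array 2) when single arrays were left out. The member median of mutant array 3 against the other arrays, 2.92, became 4.17 with offset 1 and 1.86 with offset 64, and 2.86 to 2.95 when 1 of the other arrays was left out. With single arrays left out the log2 differences of Myh3, Tnnt3 and Tnni1 ran from -0.18 to 0.885, -0.16 to 1.15 and -0.0014 to 0.204, the negative ones without mutant array 3. No other alternative turned the direction of a member probe set.

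The count over all probe sets, 105, became 181 with offset 1, 64 with offset 64, 52 without the filter, 168 with a filter at the 60th percentile, 56 with median centring (50 higher and 6 lower), 0 without the variance trend, 12 with 1 probe set per gene and 200 with eBayes on filtered probe sets only, chosen after seeing the data. Left-out arrays gave 0 to 34, with 0 without wild-type array 1 or 2 or mutant array 2 or 3. The cause was not tested. With the replicate number as a block the count was 220 (220.0), 0 member probe sets were called and the member median stayed 1.20. Same-numbered arrays deviated from their group means with correlations of 0.18, 0.13 and 0.09, each array closest to its own number, a hint from the data and not from the labels. Dim values limit the members: on 5 arrays all but Acta1 read below 16.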

Other observations

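Some genes outside muscle also differed between single arrays. Sbsn, a gene of the epidermis, read 74.9 on mutant array 3 and 161 to 207 on the others, the opposite direction to the members. The erythroid genes Alas2 and Hbb-y varied in both groups. Alas2 read 181, 126 and 146 on wild-type arrays 1, 2 and 3 and 244, 69.6 and 79.0 on the mutant arrays. Hbb-y read 43.1, 7.04 and 10.7 on the wild-type arrays, where array 1 was the highest of all 6, and 36.6, 0.571 and 3.86 on the mutant arrays.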
